A study of Mus musculus with 2 samples.

Results

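The HOX genes were followed across the stromal cells of mouse pancreatic tumours. Members were all features whose symbol is Hoxa, Hoxb, Hoxc or Hoxd followed by digits alone, which gave 40 of the 31054 features, for 39 symbols because Hoxd4 stands under 2 gene identifiers. Cluster A had 11 of these symbols, cluster B 10, cluster C 9 and cluster D 9. The tumours were an allograft model of pancreatic ductal adenocarcinoma grown in mice that carry p16-CreERT2, an inducible Cre recombinase driven by p16, together with R26-LSL-tdTomato, a red fluorescent reporter at the Rosa26 locus that Cre switches on. Perfused tumours were dissociated, and stromal cells were sorted by flow cytometry into tdTomato-positive cells (Tom positive) and tdTomato-negative cells (Tom negative), and each sort was made into 1 library by the 3' chemistry of 10x Genomics. Both sorts share the genotype, so Tom negative cells carry the same alleles. The number and age of the mice, the site of the graft, the carcinoma line and the timing of induction were not given in the sources used here. With 1 library per sort no difference was tested, and every 95% interval below covers counting error only.

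HOX genes encode transcription factors with a homeodomain, the part of the protein that binds DNA. They lie in clusters in which the order of the genes matches the order of the body regions where they act in the embryo, low numbers towards the head and high numbers towards the tail. Genes with the same number in different clusters are paralogues, copies that descend from one ancestral gene. Adult fibroblasts are known to keep HOX patterns that differ with the body region they come from.

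In the GENCODE M21 annotation of GRCm38 (mm10), cluster A runs on the minus strand of chr6:52155590-52260880, cluster B on the plus strand of chr11:96194316-96368256, cluster C on the plus strand of chr15:102921103-103036852 and cluster D on the plus strand of chr2:74668310-74765142. All 39 symbols had a homeobox in a GENCODE M21 transcript. The stretch of codons 42 to 58 of the homeobox, which encodes the helix that reads the DNA, is shown for 6 of the members that the results turn on, because it is what the family shares most closely. Capitals mark the 18 bases at the core of the helix, which took 30 different spellings over the 39 symbols.
Hoxc10: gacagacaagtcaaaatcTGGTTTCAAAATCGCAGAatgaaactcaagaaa
Hoxa10: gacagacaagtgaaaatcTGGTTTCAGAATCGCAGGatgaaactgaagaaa
Hoxd10: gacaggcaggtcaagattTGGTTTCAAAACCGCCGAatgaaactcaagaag
Hoxc8: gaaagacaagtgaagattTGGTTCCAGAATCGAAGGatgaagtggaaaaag
Hoxd8: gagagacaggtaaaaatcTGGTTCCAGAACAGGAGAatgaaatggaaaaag
Hoxb2: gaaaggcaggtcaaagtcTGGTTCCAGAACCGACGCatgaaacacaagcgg
Over the whole homeobox of 180 bases, pairs of members shared 46.1% to 93.9% of bases, with a median of 61.1%. Hoxc10 shared 82.8% with its paralogue Hoxd10 and 80.6% with its paralogue Hoxa10.

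Promoters are shown for 1 cluster C gene of the fibroblasts and for 3 cluster D genes, since the parts of these clusters differed between the populations. Of the 3, Hoxd8 was high in both blood and lymphatic endothelial-like cells. RefSeq (GRCm38.p6) gave 24 promoters for 22 of the 39 symbols, each running from 250 bases before to 50 bases after a start given there. The windows on the plus strand are chr15:103034145-103034444 for Hoxc4, chr2:74704365-74704664 for Hoxd8, chr2:74697513-74697812 for Hoxd9 and chr2:74691641-74691940 for Hoxd10. That of Hoxc4 lies inside the gene as GENCODE M21 annotates it, at chr15:103018934-103036852. Capitals mark CCAAT, or ATTGG where it lies on the other strand.
Hoxc4: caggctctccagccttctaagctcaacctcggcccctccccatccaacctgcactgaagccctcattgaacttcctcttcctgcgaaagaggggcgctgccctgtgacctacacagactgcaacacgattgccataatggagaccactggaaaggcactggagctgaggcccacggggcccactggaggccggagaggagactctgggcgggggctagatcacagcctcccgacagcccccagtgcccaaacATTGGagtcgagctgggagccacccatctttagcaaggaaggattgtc
Hoxd8: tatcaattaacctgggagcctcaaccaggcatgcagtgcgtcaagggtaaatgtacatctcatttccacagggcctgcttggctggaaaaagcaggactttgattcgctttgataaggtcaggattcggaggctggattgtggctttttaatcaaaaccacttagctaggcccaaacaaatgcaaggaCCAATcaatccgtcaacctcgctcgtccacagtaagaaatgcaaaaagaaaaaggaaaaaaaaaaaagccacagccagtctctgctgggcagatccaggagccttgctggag
Hoxd9: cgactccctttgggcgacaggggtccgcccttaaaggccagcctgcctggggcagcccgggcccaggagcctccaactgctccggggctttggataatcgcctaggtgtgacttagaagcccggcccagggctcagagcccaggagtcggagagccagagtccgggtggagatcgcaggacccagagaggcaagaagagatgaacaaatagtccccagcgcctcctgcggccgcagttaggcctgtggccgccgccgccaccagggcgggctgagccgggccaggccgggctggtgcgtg
Hoxd10: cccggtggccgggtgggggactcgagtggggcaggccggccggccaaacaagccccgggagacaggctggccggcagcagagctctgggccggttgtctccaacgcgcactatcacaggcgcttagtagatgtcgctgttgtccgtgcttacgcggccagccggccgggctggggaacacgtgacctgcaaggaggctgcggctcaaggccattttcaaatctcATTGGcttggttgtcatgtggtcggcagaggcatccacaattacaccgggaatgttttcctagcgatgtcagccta
CCAAT was found on either strand in 15 of the 24 HOX promoters (62.5%), against 37.4% of all 32851 promoters in the table. TATAAA was in 4 of the 24 (16.7%), against 13.6%, and TGATNNAT, the letters of a joint site of PBX and HOX proteins, in 4 of the 24 (16.7%), against 8.85%. TGACAG, the letters of a MEIS site, was in 2 of the 24 (8.33%), against 19.2%, and AGGTCA, letters that nuclear receptors bind, in 7 of the 24 (29.2%), against 16.3%. The windows of Hoxc4, Hoxd8 and Hoxd10 held 1 CCAAT each, and that of Hoxd9 held none. These matches are letters in a window and say nothing of binding.

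Filters left 4301 cells in the Tom positive library and 6579 in the Tom negative one, from totals of 128275546 and 164646314 UMIs (unique molecular identifiers, each counting 1 captured RNA molecule). Levels are in CPM, the UMIs of a gene in a population scaled to the same total in every population and library. Populations were named from clusters made without HOX genes and without tdTomato. Each of the 5 main populations carried all 8 of its own markers at 50 CPM or more in both libraries. They held 1525 Tom positive and 2457 Tom negative fibroblast-like cells, 46 and 160 mural-like cells (pericytes and smooth muscle), 506 and 235 blood endothelial-like cells, 147 and 33 lymphatic endothelial-like cells, and 1411 and 1949 myeloid-like cells. The tdTomato transcript stood at 391 CPM in Tom positive fibroblast-like cells, against 16.5 CPM in Tom negative ones, and 268 of 1525 against 6 of 2457 of these cells reached 500 CPM. In blood endothelial-like cells the reporter was at 209 CPM in the Tom positive library and 110 CPM in the Tom negative one. Of these cells 30 of 506 (5.93%) and 28 of 235 (11.9%) reached 500 CPM. The Tom negative ones were far shallower, with a median of 2145 UMIs against 30986, and in the shallowest cells 1 reporter UMI reaches 500 CPM. The part of depth in the higher Tom negative share was not tested. The libraries shared 3660 barcodes, and 233 Tom positive and 1234 Tom negative kept cells had a doubted barcode, meaning one that the other library held with over 5 times the UMIs or that both held under 5000 UMIs. Doubted barcodes were 118 of the 235 Tom negative blood endothelial-like cells and, among lymphatic endothelial-like cells, 21 of the 33 in that library, whose median depths were 2145 and 1605 UMIs, against 30986 and 23422 UMIs in the Tom positive library. Counts of endothelial HOX genes past a limit are therefore given below also without them.

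Fibroblast-like cells, the main matrix producers of these tumours, had a HOX signature led by cluster C. Summed over all members, HOX transcripts stood at 268 CPM (264 to 272) in fibroblast-like cells of the Tom positive library and 277 CPM (274 to 281) in those of the other. In the Tom positive library Hoxc genes made up 59.0% of these UMIs, Hoxa genes 20.4%, Hoxb genes 13.8% and Hoxd genes 6.72%. In the Tom negative library the shares were 58.6% for Hoxc, 19.3% for Hoxa, 16.8% for Hoxb and 5.41% for Hoxd. With at least 10 UMIs and 1 CPM counted as detected, 20 HOX genes were detected in both libraries. They ran from Hoxa3 to Hoxa10, from Hoxb2 to Hoxb8 and from Hoxc4 to Hoxc11, with Hoxd8 as the only Hoxd gene.

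Hoxc10, which patterns the lumbar level of the mouse embryo, was the highest member in fibroblast-like cells, at 50.9 CPM in the Tom positive library and 54.3 CPM in the Tom negative one. Hoxc8, which acts at the brachial and thoracic level, followed at 35.3 CPM and 36.7 CPM. The intervals of Hoxc10, Hoxc8 and the gene after them did not overlap in either library. Hoxc9 and Hoxc6, genes of the thoracic level, stood at 21.7 and 19.8 CPM in Tom positive cells and at 22.4 and 20.0 CPM in Tom negative cells. Hoxa10, known for its role in the uterus and the lumbar spine, was at 20.6 CPM in Tom positive cells, within the counting intervals of Hoxc9 and Hoxc6, and at 17.9 CPM in Tom negative cells, below both. Hoxc4 stood at 13.4 and 13.8 CPM and Hoxc5 at 11.03 and 10.1 CPM in the Tom positive and Tom negative libraries. Beyond Hoxc10 the level fell away, with Hoxc11 at 6.06 and 4.83 CPM, Hoxc12 at 0.0657 and 0.0105 CPM and Hoxc13 at 0.213 and 0.232 CPM. Within cluster A the same edge lay between Hoxa10 and Hoxa11, the last at 0.624 CPM in Tom positive cells and 0.516 CPM in Tom negative cells. Hoxa13, Hoxb13 and Hoxd12 had no UMI in any of the 5 populations of either library, and in fibroblast-like cells a count of 0 allows up to 0.0492 CPM in the Tom positive library and 0.0316 CPM in the Tom negative one. Counts of 9 members are uncertain, because their 3' end lies inside another gene of the same strand. Hoxa3 to Hoxa6 and Hoxd4 overlap other genes of their clusters. Hoxc6, Hoxc8 and Hoxc9 lie inside the span annotated for Hoxc5, and Hoxc10 starts before that span and ends inside it. The sources used here do not say how shared reads were assigned, and 13 members overlap a gene on the other strand.

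**Figure D1:**
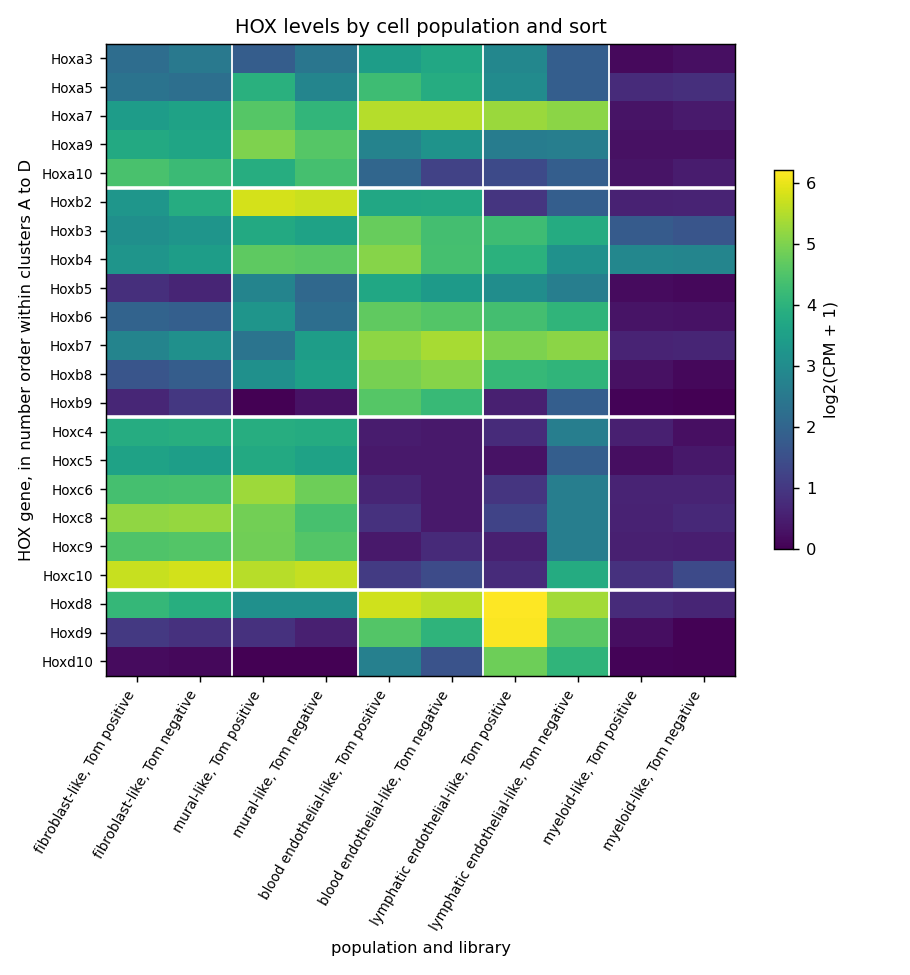
Level of the 22 HOX genes at 10 CPM or more in any of the 5 populations, as log2(CPM + 1) by colour, with genes in number order within clusters A to D down the page and the 5 populations across it, Tom positive left of Tom negative in each pair. Hoxc genes are bright in fibroblast-like and mural-like cells and dark in blood endothelial-like cells, where Hoxb6 to Hoxb9, Hoxa7 and Hoxd8 are bright, and Hoxd8 to Hoxd10 are brightest in Tom positive lymphatic endothelial-like cells.

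Mural-like cells, which wrap small vessels, had the Hoxc genes of the fibroblast-like cells together with more Hoxb2. Their summed HOX level was 387 CPM (352 to 424) in the Tom positive library and 343 CPM (326 to 361) in the Tom negative one, with 43.4% and 42.9% from Hoxc and 30.7% and 33.3% from Hoxb. Hoxb2, known for its role in the hindbrain, was at 55.1 CPM in Tom positive cells and 51.5 CPM in Tom negative mural-like cells, against 8.62 and 13.5 CPM in fibroblast-like cells of the same libraries. Hoxc10 followed at 45.8 CPM in the Tom positive library and 50.1 CPM in the Tom negative one, and the intervals of the pair overlapped. Hoxa9, which acts in blood stem cells, was at 31.4 and 22.7 CPM in mural-like cells, against 12.6 and 11.6 CPM in fibroblast-like cells. At the 4-fold limit in both libraries, used for every pair of populations, 0 of 16 tested HOX genes were higher and 0 lower in mural-like than in fibroblast-like cells, where 4.79% of all 10030 features were higher and 4.19% lower. Hoxb2 was past 4-fold in the Tom positive library (6.40, 4.86 to 8.29) and not in the Tom negative one (3.83, 3.30 to 4.42). Mural-like cells also carried 6 of 8 fibroblast markers at 50 CPM or more in both libraries, and the part of carried fibroblast RNA in their Hoxc level was not tested.

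Blood endothelial-like cells, which line blood vessels, had more HOX transcript than fibroblast-like cells, with hardly any Hoxc. Their summed level was 371 CPM (362 to 380) in the Tom positive library and 332 CPM (312 to 353) in the Tom negative one, and 371 and 339 CPM without doubted barcodes. With all cells these were 1.38-fold and 1.20-fold the fibroblast-like levels. Taken as a mean over cells, the Tom negative level was 275 CPM, near that of fibroblast-like cells, so the higher level in that library depended on the measure. Hoxb genes made up 52.7% of it in each library, Hoxa genes 24.1% and 26.4%, Hoxd genes 22.2% and 19.7%, and Hoxc genes 1.02% and 1.22%. Against fibroblast-like cells of the same libraries, 7 of 21 tested HOX genes were at least 4-fold higher, beside 8.28% of all features, and 7 were at least 4-fold lower, beside 9.04%. The higher ones were Hoxa7, Hoxb5, Hoxb6, Hoxb7, Hoxb8, Hoxb9 and Hoxd9. The lower ones were Hoxa10 and the 6 genes from Hoxc4 to Hoxc10. Without doubted barcodes 7 of 21 were again higher and 7 lower.

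Hoxd8 was highest in the blood endothelial-like cells, at 53.1 CPM in the Tom positive library and 46.8 CPM in the Tom negative one, against 16.5 and 13.9 CPM in fibroblast-like cells. Its interval overlapped that of Hoxa7 in the Tom negative library and not in the Tom positive one. Hoxa7 stood at 45.0 and 44.8 CPM, which is 4.59-fold and 4.07-fold its fibroblast-like level. Hoxb7 stood at 34.5 CPM in Tom positive cells and 41.1 CPM in Tom negative cells, and Hoxb8 at 29.7 and 33.0 CPM. Hoxb9, which shapes the thoracic skeleton, was at 22.9 and 17.2 CPM in blood endothelial-like cells, against 0.591 and 1.01 CPM in fibroblast-like cells, and was the member with the highest fold among the 21 tested in the Tom positive library (38.8-fold, 27.5 to 56.1; Tom negative 17.0-fold, 11.8 to 24.1). Among the other Hoxb genes, Hoxb4 was at 32.7 and 19.9 CPM, Hoxb3 at 26.2 and 19.5 CPM, Hoxb6 at 24.9 and 22.2 CPM, Hoxb2 at 12.3 and 12.4 CPM, and Hoxb5 at 12.1 and 9.42 CPM. Hoxa5, which acts in the developing lung, was at 18.6 CPM in Tom positive cells and 13.5 CPM in Tom negative cells, and Hoxa3, a gene of the thymus and the neck, at 9.98 and 12.1 CPM. The lead of cluster A lay at Hoxa7 here and at Hoxa10 in fibroblast-like cells. The mean number of a Hoxa UMI was 6.08 in Tom positive and 5.96 in Tom negative blood endothelial-like cells, against 7.96 and 7.70 in fibroblast-like cells. For Hoxb the order was the other way, with means of 5.77 and 5.996 in blood endothelial-like cells, against 4.30 and 4.19 in fibroblast-like cells.

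**Figure D2:**
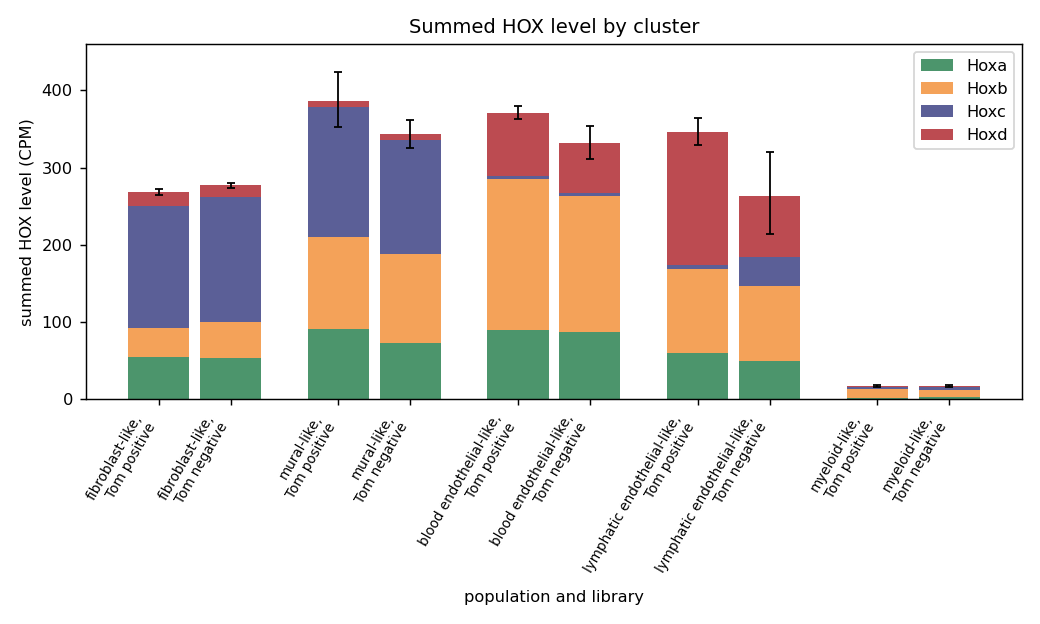
Summed HOX level in CPM (height) of the 5 populations, Tom positive left of Tom negative in each pair, split by cluster in colour, with 95% Poisson intervals of the total. Fibroblast-like and mural-like bars hold a large Hoxc part, blood endothelial-like bars are led by Hoxb and Tom positive lymphatic endothelial-like cells by Hoxd, and myeloid-like bars reach 17.0 and 16.8 CPM.

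Lymphatic endothelial-like cells, the lining of the lymph system, were led by Hoxd in the Tom positive library. In the Tom negative library Hoxb had 37 UMIs and Hoxd 30, counts too low to say which led. The summed HOX level of these cells was 346 CPM (329 to 364) in the Tom positive library and 263 CPM (214 to 320) in the Tom negative one. Without doubted barcodes it was 346 and 267 CPM. Hoxd genes made up 49.8% of it in Tom positive and 30.0% in Tom negative cells, and Hoxb genes 31.6% and 37.0%, or 29.8% for Hoxd and 36.2% for Hoxb in the 12 Tom negative cells left without doubted barcodes. Hoxd8, which in human cells takes part in the maturation of lymph vessels, was at 73.0 CPM in Tom positive cells and 39.5 CPM in Tom negative cells, against 53.1 and 46.8 CPM in blood endothelial-like cells. It was thus 1.37-fold (1.21 to 1.56) the blood endothelial-like level in the Tom positive library and 0.844-fold (0.460 to 1.44) in the Tom negative one. Hoxd9, known for its role in the limbs and the lumbar nerves, was at 70.7 CPM in Tom positive cells and 23.7 CPM in Tom negative cells, against 22.4 and 15.5 CPM in blood endothelial-like cells and 1.05 and 0.842 CPM in fibroblast-like cells. Hoxd10 was at 27.7 CPM in Tom positive cells and 15.8 CPM in Tom negative cells, against 5.55 and 2.02 CPM in blood endothelial-like cells. The Tom negative values rest on 15 UMIs for Hoxd8, 9 for Hoxd9 and 6 for Hoxd10.

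Of 15 HOX genes tested between the lymphatic and blood endothelial-like cells, Hoxd10 was at least 4-fold higher in both libraries, beside 3.39% of all features, and Hoxb2 and Hoxb9 were at least 4-fold lower, beside 2.27%. Hoxb9 was at 0.465 CPM in Tom positive cells and 2.63 CPM in Tom negative lymphatic endothelial-like cells, the second being a single UMI. Hoxb2 also had a single UMI in the Tom negative cells, and its interval there held a ratio of 1. Without doubted barcodes both had no UMI in the 12 Tom negative cells left, and 1 gene (Hoxd10) was called higher and 0 lower. Against fibroblast-like cells, 5 of 18 tested HOX genes were higher (Hoxb6, Hoxb7, Hoxb8, Hoxd9 and Hoxd10, beside 7.61% of all features) and 5 were lower (Hoxa10, Hoxb2, Hoxc8, Hoxc9 and Hoxc10, beside 4.67%). The Tom negative values of Hoxa10 and Hoxb2 are single UMIs there. Without doubted barcodes the same 5 genes were higher and 2 genes, Hoxa10 and Hoxc8, were lower. Hoxd10 showed the largest of these folds, 211-fold (104 to 499) in the Tom positive and 150-fold (44.8 to 456) in the Tom negative library, over fibroblast-like levels of 0.131 and 0.105 CPM. Hoxa7 at 37.4 and 34.2 CPM and Hoxb7 at 30.9 and 34.2 CPM stood near their blood endothelial-like levels.

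Myeloid-like cells had little HOX transcript, led by Hoxb4. Their summed level was 17.0 CPM (15.5 to 18.6) in the Tom positive library and 16.8 CPM (15.6 to 18.1) in the Tom negative one, so that fibroblast-like cells were 15.8-fold (14.4 to 17.4) and 16.5-fold (15.3 to 17.8) higher. A gene was tested where it reached 10 CPM in either population. All 11 HOX genes that did were at least 4-fold higher in fibroblast-like than in myeloid-like cells of both libraries, beside 14.7% of all 9758 features. Of the 11, 0 were lower, beside 9.45%. Since no HOX gene reached 10 CPM in myeloid-like cells, a lower call was not possible for this family. For the same reason all 11 passed the minimum through their fibroblast-like level alone. Other features could pass through either population, so the count of 11 and the share of all features are not like for like. The limit also left Hoxb4 and Hoxb3 untested. Tom positive fibroblast-like cells held them at 8.50 and 7.57 CPM, and the other sort at 9.93 and 8.48 CPM. Hoxb4, which is known to expand blood stem cells, was at 6.33 CPM (5.43 to 7.33) in Tom positive cells and 6.11 CPM (5.38 to 6.91) in Tom negative myeloid-like cells, and Hoxb3 at 2.45 and 2.10 CPM. These were the 2 HOX genes detected in both libraries there. Carcinoma-like cells of the Tom negative library, 43 in number, had 5 HOX UMIs in all, or 4.66 CPM (1.51 to 10.9). Of the 43, 15 had a doubted barcode. Carcinoma-like cells carried 6 of 8 epithelial markers at 50 CPM or more in the Tom positive library and 4 of 8 in the Tom negative one. They also carried 4 of 8 and 5 of 8 fibroblast markers at that level. Carcinoma-like cells of the Tom positive library, 29 in number, fell under the 30 cells required for a summed level. A HOX UMI was found in 7 of the 29 Tom positive (24.1%) and 3 of the 43 Tom negative carcinoma-like cells (6.98%). Thinned to 5000 UMIs it was in 2 of 24 (8.33%) and 0 of 25, which allows a share of up to 12%.

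The Hoxc counts outside mesenchymal cells were set beside the level that free RNA of fibroblast-like cells would give, taken from the collagen and proteoglycan transcripts Col1a1, Col1a2, Col3a1, Dcn and Lum in the same cells. In blood endothelial-like cells the summed Hoxc level was 3.77 CPM (2.93 to 4.78) in the Tom positive library, above a carried level of 2.40 CPM, and 4.04 CPM (2.09 to 7.05) in the Tom negative library, where the carried level was 5.71 CPM. In lymphatic endothelial-like cells it was 4.42 CPM (2.66 to 6.90) beside 3.71 CPM in the Tom positive library and 36.8 CPM (20.1 to 61.8) beside 39.0 CPM in the Tom negative library. In myeloid-like cells it was 3.06 CPM (2.45 to 3.78) beside 2.85 CPM and 3.86 CPM (3.29 to 4.51) beside 3.90 CPM. The Hoxb level of myeloid-like cells was 10.5 CPM beside a carried level of 0.668 CPM in the Tom positive library and 9.73 CPM beside 1.11 CPM in the Tom negative library. Apart from the Tom positive blood endothelial-like cells, these Hoxc levels held the carried level within their counting intervals.

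**Figure D3:**
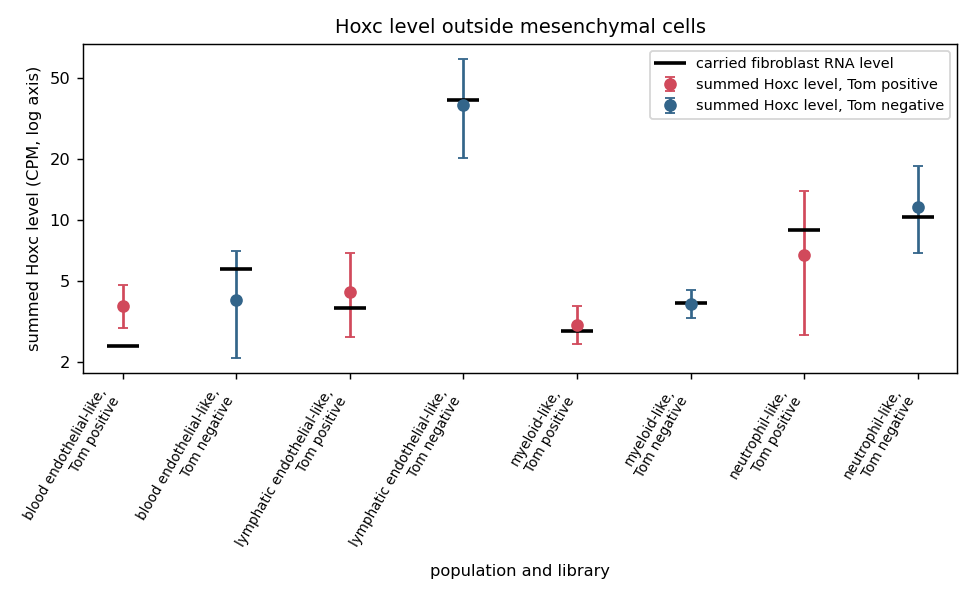
Summed Hoxc level in CPM on a log axis (points with 95% Poisson intervals, Tom positive left of Tom negative) in 3 populations and in neutrophil-like cells, with black bars at the level that carried fibroblast RNA would give. The bar lies inside the interval everywhere except in Tom positive blood endothelial-like cells, at 3.77 CPM beside 2.40 CPM.

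The share of cells with a UMI gave the same picture once depth was made equal, in the cells deep enough to be thinned. In whole cells, a Hoxc UMI was found in 94.5% of the 1525 fibroblast-like cells of the Tom positive library and in 92.0% of the 2457 of the Tom negative library, with a median of 6 HOX genes seen per cell in both libraries. With each cell thinned to 5000 UMIs, the Hoxc share was 51.5% (48.9 to 54.1) in Tom positive and 54.1% (52.1 to 56.2) in Tom negative fibroblast-like cells, 64 and 139 shallower cells being left out. It was 56.8% and 47.6% in mural-like cells, 1.95% and 3.74% in blood endothelial-like cells and 1.34% and 1.83% in myeloid-like cells, the last being the share that cells without the fibroblast programme reached. Of the 235 Tom negative blood endothelial-like cells, 128 were left out as too shallow. Lymphatic endothelial-like cells had a Hoxc UMI in 3.68% of 136 Tom positive cells and in 3 of 10 Tom negative cells. The Hoxb share was 61.9% (57.3 to 66.3) in Tom positive and 56.1% (46.2 to 65.7) in Tom negative blood endothelial-like cells, against 15.7% and 19.8% in fibroblast-like cells and 5.74% and 4.32% in myeloid-like cells. A Hoxd9 UMI was found in 31.6% of 136 Tom positive lymphatic endothelial-like cells, 7.79% of 462 Tom positive blood endothelial-like cells and 0.479% of 1461 Tom positive fibroblast-like cells. In the Tom negative library only 10 lymphatic endothelial-like cells had 5000 UMIs, of which 1 had a Hoxd9 UMI.

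Among the 6 fibroblast subsets, Hoxb2 was the only tested HOX gene past a 2-fold limit in both libraries. Subsets are called by their marker genes, and the summed HOX level ran from 235 to 321 CPM over the Tom positive and from 233 to 336 CPM over the Tom negative subsets. Hoxb2 was at 19.3 CPM in Tom positive cells and 23.5 CPM in Tom negative cells of the Stra6, Col7a1 and Tnc subset, which is 3.23-fold (2.71 to 3.85) and 2.41-fold (2.15 to 2.69) its level in the other fibroblast-like cells. It was the only one of 13 tested HOX genes at least 2-fold higher there in both libraries, beside 3.15% of all features, and 0 were lower, beside 6.10%. Without doubted barcodes these folds were 2.89 and 2.21. In the C7, Sfrp4 and Abca8a subset Hoxb2 was at 3.41 CPM in Tom positive cells and 7.08 CPM in Tom negative cells and was the 1 of 12 tested HOX genes at least 2-fold lower, beside 2.26% of all features, while 0 were higher, beside 1.73%. Clustering without doubted barcodes gave no subset of that name. The other fibroblast-like cells in that comparison include the Stra6, Col7a1 and Tnc subset, where Hoxb2 was highest. In the Cemip, Ctla2a and Greb1 subset Hoxb2 was at 7.30 CPM in Tom positive cells and 6.68 CPM in Tom negative cells. A low level was thus not particular to the C7 subset in the Tom negative library. In the 4 subsets other than the Stra6 and C7 ones, 0 of 12 to 14 tested HOX genes were past 2-fold in both libraries. There 2.24% of features were higher and 2.82% lower in the Fmod, Comp and Thbs4 subset, 4.19% and 5.03% in the Dmkn, Sema3e and Cd55 subset, 0.451% and 2.57% in the Cemip, Ctla2a and Greb1 subset, and 5.57% and 2.45% in the cycling subset. Hoxc8 was highest in the Fmod, Comp and Thbs4 subset, at 53.1 CPM in Tom positive cells and 56.5 CPM in Tom negative cells, against 26.5 to 40.2 CPM in every other subset of either library, and its ratios of 1.77 and 1.69 stayed under the 2-fold limit (1.43 and 1.51 without doubted barcodes, 1.01 and 1.17 with at least 200 genes and no UMI minimum). Hoxd8 was lowest in the Dmkn, Sema3e and Cd55 subset, at 10.97 CPM in Tom positive cells and 7.89 CPM in Tom negative cells. Hoxb7 in the C7 subset was at 1.45 CPM (17 UMIs) in Tom positive cells, against 6.55 CPM (85 UMIs) in Tom negative cells, a ratio of 0.22 (0.12 to 0.38), and both levels are under the 10 CPM minimum of the comparison. Hoxc10 kept a narrow range, from 47.2 to 66.0 CPM over all 12 values.

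**Figure D4:**
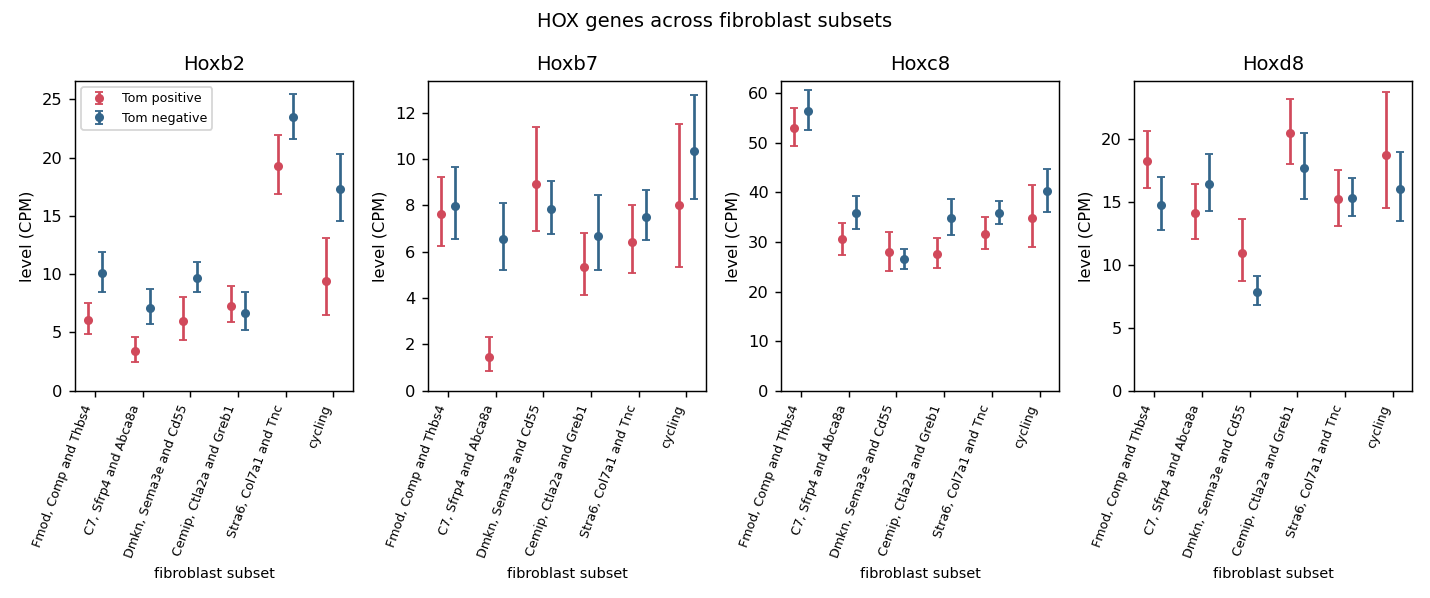
Levels in CPM of Hoxb2, Hoxb7, Hoxc8 and Hoxd8 (points with 95% Poisson intervals) in the 6 fibroblast subsets, Tom positive left of Tom negative. Hoxb2 stands out in the Stra6, Col7a1 and Tnc subset at 19.3 and 23.5 CPM, Hoxc8 in the Fmod, Comp and Thbs4 subset at 53.1 and 56.5 CPM, and Hoxb7 is low in Tom positive cells of the C7, Sfrp4 and Abca8a subset at 1.45 CPM.

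The sort itself, which asks how p16-reporter cells differ from the other stromal cells, went with few HOX differences. In fibroblast-like cells 0 of 11 tested HOX genes were at least 1.5-fold higher in Tom positive cells, beside 0.830% of 8678 features, and 1 was at least 1.5-fold lower, beside 1.39%. The median log2 difference of the 11 was -0.04, beside -0.03 over all features tested. The summed HOX level had a Tom positive to Tom negative ratio of 0.967 (0.949 to 0.986). The member that fell past the limit was Hoxb2, at 8.62 CPM in Tom positive cells and 13.5 CPM in Tom negative cells, a ratio of 0.641 (0.578 to 0.710). Within subsets its ratio ran from 0.48 in the C7 subset (3.41 against 7.08 CPM) to 1.09 in the Cemip, Ctla2a and Greb1 subset (7.30 against 6.68 CPM). It was under 1 in 5 of the 6. At the limits of the sort, 0 tested HOX genes were higher in any subset, beside 1.12%, 1.99%, 1.25%, 0.883%, 0.987% and 3.53% of features in the Fmod, C7, Dmkn, Cemip, Stra6 and cycling subsets. The lower ones were Hoxb2 of 12 in the Fmod subset, beside 1.39%, and Hoxb2 and Hoxb4 of 11 in the cycling subset, beside 4.56%. In the C7, Dmkn, Cemip and Stra6 subsets 0 of 10, 10, 9 and 11 were lower, beside 2.85%, 0.858%, 1.78% and 1.08% of features. Hoxb2 was under 10 CPM in the C7, Dmkn and Cemip subsets and so was not among the tested genes there. Its ratio was nevertheless past 1.5-fold in the C7 subset (0.48, 0.32 to 0.71) and in the Dmkn subset (0.62, 0.44 to 0.85, from 5.96 against 9.68 CPM). The Stra6 subset, where Hoxb2 was highest, made up 16.0% of the fibroblast-like cells in the Tom positive library and 22.9% in the other, and with the 6 subsets weighted equally the log2 difference was -0.48, inside the limit, against -0.59 over all cells. The 268 Tom positive fibroblast-like cells at 500 CPM of tdTomato or more had Hoxb2 at 11.6 CPM, and the 1257 below it had 7.99 CPM. The first were thus 0.859-fold (0.709 to 1.03) the Tom negative level. Of the 268, 74 were of the Stra6 subset, where 30.3% of Tom positive cells reached 500 CPM, against 17.6% of all Tom positive fibroblast-like cells. More of them, 87, were of the Dmkn subset, where 41.6% of Tom positive cells reached it. Hoxb2 was at 5.96 CPM in the Tom positive cells of that subset. The part of subset make-up in this split was not tested. The next widest ratios were those of Hoxd8 at 1.19 (1.09 to 1.29) and Hoxa10 at 1.15 (1.06 to 1.23), and all 6 tested Hoxc genes lay between 0.937 and 1.09.

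In blood endothelial-like cells Hoxb4 was the 1 of 13 tested HOX genes past 1.5-fold, higher in Tom positive cells (beside 4.99% of features higher and 7.58% lower). It was at 32.7 CPM in Tom positive cells and 19.9 CPM in Tom negative cells, a ratio of 1.65 (1.26 to 2.19). In the deep cluster alone, with 464 Tom positive and 118 Tom negative cells, it was at 32.7 and 20.0 CPM (1.63, 1.24 to 2.19). Without doubted barcodes it was again the 1 gene past the limit (1.64, 1.25 to 2.20). With the Tom positive side limited to the 30 cells that reached 500 CPM of the reporter, the call ended, at 28.6 CPM, against 19.9 CPM in Tom negative cells (1.44, 0.799 to 2.48). In mural-like cells Hoxa5 was higher, at 14.4 CPM in Tom positive cells and 6.08 CPM in Tom negative cells (2.37, 1.21 to 4.54), and Hoxb7 lower, at 4.24 and 10.1 CPM (0.42, 0.13 to 1.06), among 15 tested, beside 9.59% and 8.58% of features. With at least 200 genes and no UMI minimum both calls ended, since Hoxa5 was at 5.95 CPM in Tom positive cells and 3.75 CPM in Tom negative cells and Hoxb7 at 7.55 and 7.84 CPM, all under the minimum of 10 CPM. In lymphatic endothelial-like cells 4 of 10 tested HOX genes were higher in Tom positive cells, beside 15.8% of features, and 1 lower, beside 16.0%. The higher ones were Hoxb4, Hoxd8, Hoxd9 and Hoxd10, and the intervals of Hoxd8 (1.85, 1.105 to 3.35) and Hoxd9 (2.99, 1.55 to 6.59) lay above 1. Hoxc10 was the lower one, at 0.698 CPM in Tom positive cells and 13.2 CPM in Tom negative cells, and the summed fibroblast markers stood at 1711 and 14860 CPM in the same cells. The part of carried fibroblast RNA and of depth in these lymphatic differences was not tested. Without doubted barcodes the log2 differences were 0.86 for Hoxd8 and 1.43 for Hoxd9, against 0.87 and 1.54 with them, and the same 4 genes were higher and Hoxc10 lower. At a mitochondrial limit of 5% the log2 differences were 0.59 and 0.69, and the intervals of the plain ratios, 1.51 (0.784 to 3.36) for Hoxd8 and 1.63 (0.813 to 3.82) for Hoxd9, held 1. As a mean over cells that of Hoxd9 was 2.84. No HOX gene of myeloid-like cells reached 10 CPM, so 0 were compared there, where 1.13% of features were higher and 1.28% lower.

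**Figure D5:**
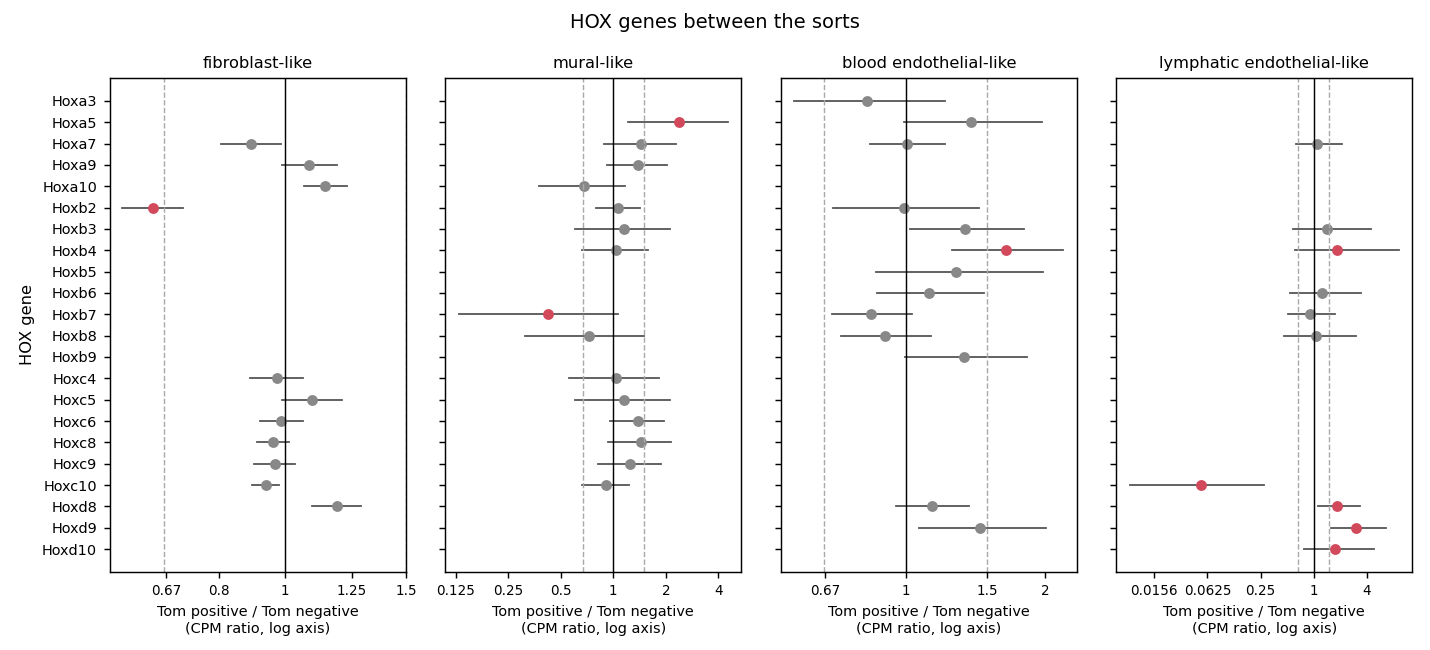
Ratio of Tom positive to Tom negative level (points, with 95% conditional intervals, log axes that differ between panels) for each tested HOX gene in 4 populations, with dashed lines at 1.5-fold either way and genes past it in red. Hoxb2 at 0.641 is the only red point in fibroblast-like cells and Hoxb4 at 1.65 the only one in blood endothelial-like cells.

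Genes around the HOX system were compared between the sorts in fibroblast-like cells, where 0.830% of all features were at least 1.5-fold higher and 1.39% lower. Of 8 measured TALE cofactors, the homeodomain partners with which HOX proteins bind DNA, 0 were past 1.5-fold either way, with Meis2 at 156.1 CPM in Tom positive cells and 133 CPM in Tom negative cells. Meis1 was at 70.9 and 56.9 CPM and Pknox2 at 65.6 and 55.0 CPM. Across populations, Meis2 was at 333 CPM in Tom positive cells and 287 CPM in Tom negative lymphatic endothelial-like cells, against 5.88 and 9.76 CPM in blood endothelial-like cells. Of 21 measured Polycomb and trithorax regulators, which hold HOX clusters silent or active, 0 were past the limit. The 1 measured non-coding RNA of the clusters was not past it either. Of 14 measured genes of the retinoic acid pathway, which sets HOX domains in the embryo, 0 were higher and 2 lower. These were Aldh1a3 and Stra6. Aldh1a3, an enzyme that makes retinoic acid, was at 15.6 CPM in Tom positive cells and 28.4 CPM in Tom negative cells. Stra6, a receptor for retinol uptake, was at 13.3 and 20.4 CPM. Stra6 is also a naming marker of the Stra6, Col7a1 and Tnc subset. That subset was the smaller share of fibroblast-like cells on the Tom positive side, at 16.0% against 22.9%. The part of this make-up in the lower Stra6 level was not tested. Of 14 measured other regional transcription factors of mesenchyme, Meox2 was higher at 38.2 CPM in Tom positive cells and 24.6 CPM in Tom negative cells and Msx1 lower at 12.1 and 18.8 CPM.

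Over 23 pairs of population and library, the 5 genes whose log2(CPM + 1) followed the summed HOX level most closely among 8322 candidates were Lrrc32, Tfpi, Tshz3, Armcx2 and Bhlhb9, with Pearson r of 0.958 to 0.969. For the summed Hoxc level they were Enox1, Nfatc4, Postn, Sdc2 and Adamts2, with r of 0.976 to 0.984. The 23 points share 2 libraries, so these values describe likeness only. Postn, the matrix protein periostin, stood at 2586 CPM in fibroblast-like cells of the Tom positive library, against 2147 CPM in those of the Tom negative library.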

How the data were processed

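The deposited files are, per the file headers, counts of UMIs for each gene in each barcode. The submitters' processing notes name Cell Ranger 7.0.1 and mm10, with which the authors made these counts, and the treatment of cell barcodes and overlapping genes is not given in the sources used here. Barcodes with at least 500 genes, 1000 UMIs and at most 10% mitochondrial UMIs were kept, and Scrublet removed 64 Tom positive and 98 Tom negative doublets. In scanpy 1.11.5, counts scaled to 10000 per cell gave 2000 variable genes, 30 principal components, 15 neighbours and, with leidenalg 0.10.2 at resolution 1, 30 clusters, 3 of them unnamed. UMIs were summed per population and library. Calls needed 10 CPM and 1.5-fold between the sorts, or, in both libraries, 2-fold between subsets or 4-fold between populations. Log2 differences use a pseudocount of 1 CPM and ratios none. The 95% intervals (exact Poisson, binomial or conditional, scipy 1.17.1) cover counting error only, and a count of 0 is bounded at 3 counts. The call rule was tested on simulated data. Described with their values were the 22 HOX genes at 10 CPM or more in any of the 5 populations, together with, after their values were seen, those at the ends of the expressed range, and of other genes the highest or called members of the listed pathways and the 5 closest in pattern. Members and lists were chosen with earlier results of these data known, and the comparisons of mural and endothelial populations and the splits of single genes by subset, cluster or reporter level, and the endothelial calls without doubted barcodes, were chosen after seeing the data. The alternatives tried covered filters, doublets, clustering, TMM scaling (edgeR 4.0.16), thinning depth and doubted barcodes. Some items are not reported here.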

Additional observations from a re-analysis of the deposited data

How the results depend on the processing

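No paired analysis was possible because each sort gave 1 library and the labels hold no replicate numbers. Of 277 recomputed values of the main results, 234 stayed within the counting interval of the reported value, or for counts within 1.5 times it. No value past a limit changed sign. The summed log2 differences, none of which was past the limit, changed sign in fibroblast-like and mural-like cells as given below, and in myeloid-like cells from the reported 0.0127 to -0.0484 and -0.0239 at mitochondrial limits of 5% and 20%, -0.00835 at 200 genes, -0.0262 over cells and -0.00683 with TMM. For the others the cause was not tested unless it lies in the alternative itself. The summed fibroblast-like level moved to 262 CPM (Tom positive) and 273 CPM (Tom negative) at Leiden resolution 2, to 251 and 261 CPM with at least 200 genes and no UMI minimum, to 274 and 272 CPM as a mean over cells, to 262 CPM (Tom positive) at a mitochondrial limit of 20%, and to 272 CPM (Tom negative) with doublets kept. The mural-like level moved to 298 and 299 CPM at 200 genes, to 438 and 367 CPM over cells, and to 317 CPM (Tom negative) at a mitochondrial limit of 5%. The mean over cells gave 275 CPM in Tom negative blood endothelial-like cells, near the 272 CPM of Tom negative fibroblast-like cells by the same measure. It gave 18.8 CPM in Tom negative myeloid-like cells. The summed log2 difference between the sorts became -0.0117 in fibroblast-like cells with TMM factors (edgeR), -0.0137 when the Tom positive side was limited to cells with 500 CPM of the reporter, 0.0101 there as a mean over cells, 0.42 in blood endothelial-like cells as a mean over cells and -0.00516 in mural-like cells at 200 genes. The fibroblast over myeloid ratio in the Tom negative library was 15.3 at 200 genes and 14.4 over cells.

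The count of HOX genes past 1.5-fold in fibroblast-like cells was 0 with the 500 CPM limit and with subsets weighted equally, where Hoxb2 had log2 differences of -0.20 and -0.48, and 2 at a minimum of 1 CPM, which added Hoxb9 at 0.591 CPM in Tom positive cells, against 1.01 CPM in the other library. The count of subset calls was 0 at 200 genes and 1 without doubted barcodes, and neither clustering held the C7 subset. With at least 3 UMIs and no CPM minimum, 31 HOX genes were detected in fibroblast-like cells of both libraries. The Hoxc part of the HOX UMIs was 57.9% in Tom positive fibroblast-like cells at 200 genes. In blood endothelial-like cells it was 1.96% (Tom positive) and 3.52% (Tom negative) with doublets kept, and 3.50% (Tom negative) at 200 genes. The Hoxc share of fibroblast-like cells was 28.9% (Tom positive) and 27.0% (Tom negative) thinned to 2000 UMIs and 77.5% and 76.5% thinned to 10000 UMIs, which follows from the depth. It was 48.8% (Tom positive) at a mitochondrial limit of 20%, and in Tom negative cells 51.5% at 200 genes and 50.2% with doublets kept. In blood endothelial-like cells it was 0.832% (Tom positive) and 0.826% (Tom negative) thinned to 2000 UMIs, and 0.893% (Tom negative) at 200 genes and with doublets kept. At 200 genes Scrublet marked no Tom negative doublet. TMM moved the median of all genes by 0.07 at most on the log2 scale. The 33 Tom negative lymphatic endothelial-like cells and their depth limit every statement on them.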
